A study of Rattus norvegicus with 16 samples.

Results

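The genes described here encode subunits of the 5 oxidative phosphorylation complexes, measured in rat mammary gland. Members were all symbols beginning with Nduf, Uqcr or Atp5, the genes Sdha to Sdhd, and all symbols beginning with Cox4 to Cox8, among the genes that the platform annotation pairs with exactly 1 symbol. This gave 80 members of 14324 named genes, and 79 of them passed the filter on dim genes, with 11796 genes passing in all. The member left out was Cox6c-ps1, whose mean of 5.37 lay under the filter value of 5.661. The members comprised 6 core subunits of complex I, 27 accessory subunits of complex I, 3 assembly factors of complex I, 4 subunits of complex II, 7 of complex III, 10 common subunits of complex IV, 16 members of complex V, 5 tissue isoforms of complex IV, and 2 symbols of pseudogenes. Subunits whose probe sets carry no single symbol in that annotation, and those encoded by mitochondrial DNA, are not analysed here.

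Oxidative phosphorylation is the last stage of respiration in the mitochondrial inner membrane. Complexes I and II feed electrons from NADH and succinate to ubiquinone, complex III passes them on to cytochrome c, and complex IV reduces oxygen. Complexes I, III and IV pump protons, and complex V, the ATP synthase, uses the gradient to make ATP. Some subunits of complex IV exist as tissue isoforms, of which Cox6a2 and Cox8b replace Cox6a1 and Cox8a in heart and skeletal muscle. The mammary gland of a young rat is an epithelial tree within a fat pad that borders on skin and muscle.

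The glands came from female Wistar Han rats at postnatal day (PND) 35 and PND50, raised on a diet free of phytoestrogens. From gestational day 1 until weaning at PND21 the dams received a daily gavage of genistein, a soy isoflavone that binds estrogen receptors, of vinclozolin, an antiandrogenic fungicide, or of both (the mixture), or were left untreated (control). The daily dose of either compound, alone or in the mixture, was 1 mg/kg. Crossing 4 treatments with 2 ages gave 8 groups of 2 Affymetrix arrays, 16 in all, and the RNA on an array was a pool from 5 animals, with 1 female taken per litter. All values are log2 intensities, and the spread behind a p-value is that of pools, since no value of a single animal was used. In whole gland, fewer cells of a type and less RNA per cell cannot be told apart.

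Replicate pools correlated between 0.9893 and 0.9966 over all probe sets. Of the luminal epithelial markers 20 of 20 passed the filter, with the epithelial factor Gata3 at a mean of 11.8 and keratin gene Krt19 at 10.4. Of the 14324 named genes 11796 passed it, so passing is no check of the mammary label. Other tissues were present to different degrees. The 2 vinclozolin pools at PND35 stood apart in skin and hair genes, with mean deviations of 3.07 and 2.58 where the other pools lay between -0.59 and -0.247. Skeletal muscle markers, 21 of 26 tested, ranged in mean deviation from -0.127 to 2.1 among the PND35 pools and from -1.66 to 1.17 among the PND50 pools, with Acta1 (skeletal actin) never below 8.59. Of the brown adipocyte markers, 6 of 10 were tested, and the defining gene Ucp1 lay under the filter with a mean of 5.2.

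The first question was whether members changed between the ages. Averaged over the 4 treatments, 50 of the 79 members were lower at PND50 and 2 were higher at an adjusted p under 0.05 (limma over all genes, Benjamini-Hochberg). Among all genes tested, 25.2% were called lower and 19.4% higher. The median member difference, PND50 minus PND35, was -0.172 on the log2 scale against -0.008 over all genes, and 70 members had a negative difference. Members of all 5 complexes fell, by amounts that were mostly below 0.4 on the log2 scale.

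**Figure D1:**
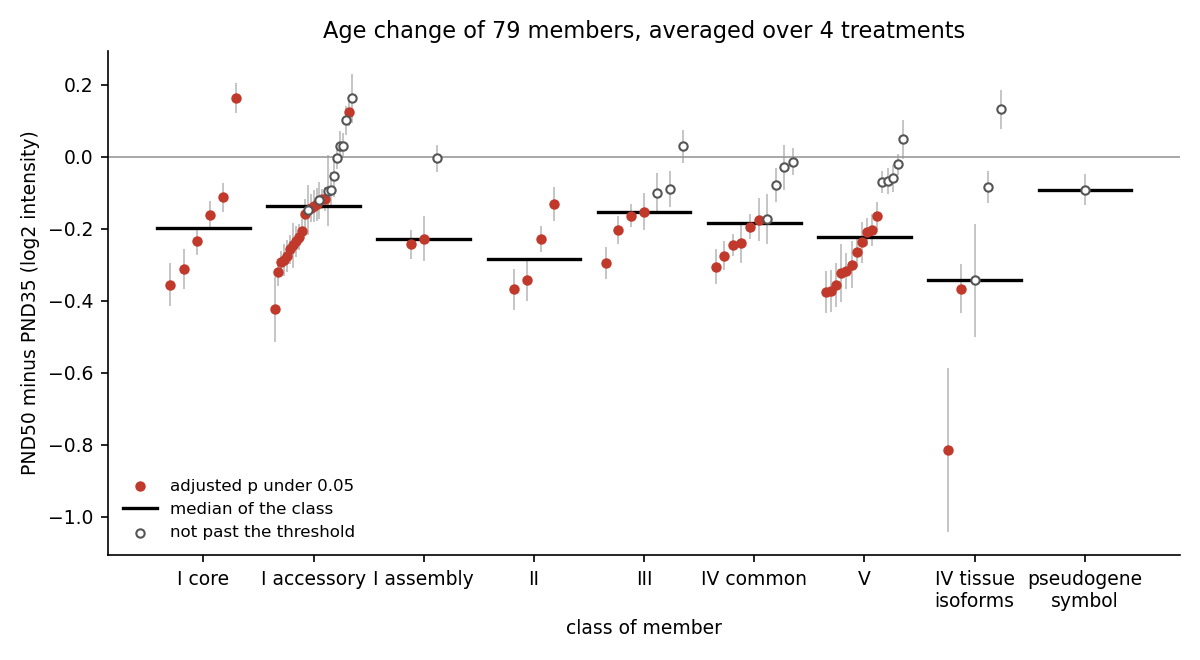
Difference between PND50 and PND35 in log2 intensity (vertical axis) for the 79 members by class (horizontal axis), averaged over 4 treatments with 2 pools per group. Points are members with their standard error, filled where the adjusted p was under 0.05, and bars are class medians, which lie below 0 in every class, from -0.343 in the tissue isoforms to -0.091 in the single pseudogene symbol.

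Complex I oxidises NADH. Of its 6 core subunits, which hold the flavin and iron-sulfur clusters, 5 fell and 1 rose, with a median of -0.198. Ndufs1, the largest iron-sulfur subunit, spanned 9.34 to 9.72 with a median of 9.55 in the 8 PND35 pools and 9.04 to 9.36 with a median of 9.17 in the 8 PND50 pools. Only its highest PND50 pool, vinclozolin replicate 1, reached into the PND35 range. Ndufs1 fell by 0.355 (SE 0.059, adjusted p = 0.00089). Ndufs3, a subunit of the quinone-binding module, had a lowest value of 8.71 at PND35 and a highest of 8.70 at PND50, so the ages did not overlap, and it fell by 0.311 (SE 0.056, adjusted p = 0.0014). Ndufs8, which carries 2 of the iron-sulfur clusters, fell by 0.234 (SE 0.039, adjusted p = 0.00089), and Ndufv2, an iron-sulfur subunit beside the flavin, by 0.112 (SE 0.04, adjusted p = 0.0383).

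Ndufs7, the subunit of the last iron-sulfur cluster before ubiquinone, went the other way. It spanned 11.04 to 11.30 with a median of 11.19 at PND35, and 11.18 to 11.48 with a median of 11.36 at PND50. The ranges overlapped, and the lowest values of all were those of the mixture at PND35, 11.07 and 11.04. Ndufs7 rose by 0.164 (SE 0.041, adjusted p = 0.00818), and the other member that rose was the accessory subunit Ndufs4, by 0.124 (SE 0.039, adjusted p = 0.0224). Ndufs4, which stabilises the NADH-oxidising end of the complex, spanned 11.78 to 12.12 at PND35 and 11.97 to 12.18 at PND50. With a score of skeletal muscle markers added to the fit, Ndufs7 was at 0.044 (adjusted p = 0.704) and Ndufs4 at -0.004 (adjusted p = 0.974), so neither call was kept.

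The 27 accessory subunits surround the core and serve its assembly and stability. Of these, 16 fell and 1 rose, with a median of -0.136. Ndufs5, on the side of the intermembrane space, was the member with the smallest p. Its PND35 pools were at 8.99 and 9.09 (control), 8.96 and 9.03 (genistein), 8.95 and 8.93 (vinclozolin), and 9.10 and 9.09 (mixture). Its PND50 pools were at 8.72 and 8.72 (control), 8.80 and 8.74 (genistein), 8.79 and 8.72 (vinclozolin), and 8.65 and 8.67 (mixture). Every PND50 pool lay below every PND35 pool, and replicates of a group lay closer together than the ages. Ndufs5 fell by 0.291 (SE 0.03, adjusted p = 9.34e-05), to 0.817 of its PND35 level.

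The membrane-arm subunits Ndufb5 and Ndufb3 showed the same separation of ages. Ndufb5 spanned 10.12 to 10.44 at PND35 and 9.83 to 10.06 at PND50 and fell by 0.321 (SE 0.037, adjusted p = 0.000157). Ndufb3 spanned 8.61 to 8.82 and then 8.33 to 8.54 and fell by 0.257 (SE 0.04, adjusted p = 0.000626). At the other end stood Ndufv3, an accessory subunit near the flavin site, with a median of 10.58 at PND35 and 10.57 at PND50, a difference of -0.003 (SE 0.031, adjusted p = 0.942). Ndufa4, long counted with complex I and now placed with complex IV, spanned 11.64 to 11.97 and then 11.50 to 11.66 and fell by 0.223 (SE 0.037, adjusted p = 0.000845). By its symbol it is counted here among the 27 accessory subunits of complex I and not among the 10 common subunits of complex IV.

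Assembly factors of complex I are not part of the finished enzyme. Ndufaf1, which acts in building the membrane arm, had medians of 7.16 and 6.90 and fell by 0.243 (SE 0.041, adjusted p = 0.000905). Ndufaf4 fell by 0.227 (SE 0.062, adjusted p = 0.0118). Ndufaf3 had medians of 7.19 and 7.18, a difference of -0.004 (SE 0.037, adjusted p = 0.941).

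Complex II, succinate dehydrogenase, is shared between the respiratory chain and the citric acid cycle. All 4 of its subunits fell, with a median of -0.285. Sdha, the flavoprotein that oxidises succinate, was at 9.75 and 9.95 (control), 9.93 and 9.87 (genistein), 9.98 and 9.71 (vinclozolin), and 9.99 and 10.11 (mixture) at PND35. At PND50 it was at 9.63 and 9.59 (control), 9.46 and 9.71 (genistein), 9.49 and 9.51 (vinclozolin), and 9.58 and 9.37 (mixture). The ages met at 9.71 to 2 decimals, in vinclozolin replicate 2 at PND35 and genistein replicate 2 at PND50, and did not cross. Sdha fell by 0.368 (SE 0.056, adjusted p = 0.000567), to 0.775 of its PND35 level.

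The membrane anchor Sdhd spanned 9.25 to 9.60 at PND35 and 8.90 to 9.17 at PND50, without overlap, and fell by 0.343 (SE 0.056, adjusted p = 0.000818). The iron-sulfur subunit Sdhb spanned 9.33 to 9.62 and then 9.18 to 9.42 and fell by 0.227 (SE 0.036, adjusted p = 0.000646). The other anchor, Sdhc, had medians of 11.48 and 11.30 and fell by 0.131 (SE 0.047, adjusted p = 0.0404). Vinclozolin replicate 2 at PND35 was the lowest PND35 pool for all 4 subunits, with Sdhc at 11.23.

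In complex III, 4 of 7 subunits fell and none rose, with a median of -0.152. Uqcrfs1, the Rieske iron-sulfur protein, spanned 8.51 to 8.79 with a median of 8.62 at PND35 and 8.16 to 8.44 with a median of 8.37 at PND50. Its ages did not overlap, and it fell by 0.295 (SE 0.045, adjusted p = 0.000576). The core proteins Uqcrc1 and Uqcrc2 fell by 0.203 (SE 0.04, adjusted p = 0.00218) and 0.163 (SE 0.033, adjusted p = 0.00236). The small subunit Uqcr11 had medians of 12.46 and 12.49, a difference of 0.029 (SE 0.045, adjusted p = 0.619).

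Of the 10 common subunits of complex IV, 6 fell and none rose, with a median of -0.184. Cox5b, a zinc-binding subunit on the matrix side, spanned 8.73 to 8.87 with a median of 8.78 at PND35 and 8.49 to 8.62 with a median of 8.54 at PND50. The ages were separate, with both ranges narrow, and Cox5b fell by 0.245 (SE 0.031, adjusted p = 0.000232). Cox7a2, a subunit at the dimer interface, spanned 11.42 to 11.63 and then 11.11 to 11.35 and fell by 0.274 (SE 0.04, adjusted p = 0.000433). Cox7c, a small transmembrane subunit, overlapped slightly, with a lowest PND35 value of 10.69 and a highest PND50 value of 10.71, and fell by 0.305 (SE 0.048, adjusted p = 0.000658). Cox8a had medians of 12.39 and 12.34, a difference of -0.013 (SE 0.038, adjusted p = 0.805). Cox7a2l, which joins complexes III and IV into supercomplexes, had medians of 11.18 and 11.09, a difference of -0.079 (adjusted p = 0.188).

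Complex V had 11 of 16 members that fell and none that rose, with a median of -0.222. Atp5mc1, one of 3 genes for the rotor ring subunit, spanned 8.88 to 9.36 with a median of 9.10 at PND35 and 8.54 to 8.89 with a median of 8.72 at PND50. The ranges overlapped only through control replicate 2 at PND35 and vinclozolin replicate 1 at PND50, and it fell by 0.376 (SE 0.058, adjusted p = 0.000594). Atp5po, the stalk subunit that holds the catalytic head, spanned 8.49 to 8.90 and then 8.06 to 8.48, without overlap, and fell by 0.373 (SE 0.059, adjusted p = 0.000675). Atp5f1e, the epsilon subunit of the rotor, spanned 10.83 to 11.24 and then 10.44 to 10.82, also without overlap, and fell by 0.317 (SE 0.049, adjusted p = 0.000632). Its neighbour in the rotor, the delta subunit Atp5f1d, had medians of 12.47 and 12.44, a difference of -0.021 (SE 0.03, adjusted p = 0.589). Atp5if1, which inhibits ATP hydrolysis by the enzyme, had medians of 10.50 and 10.45, a difference of -0.068 (adjusted p = 0.141).

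**Figure D2:**
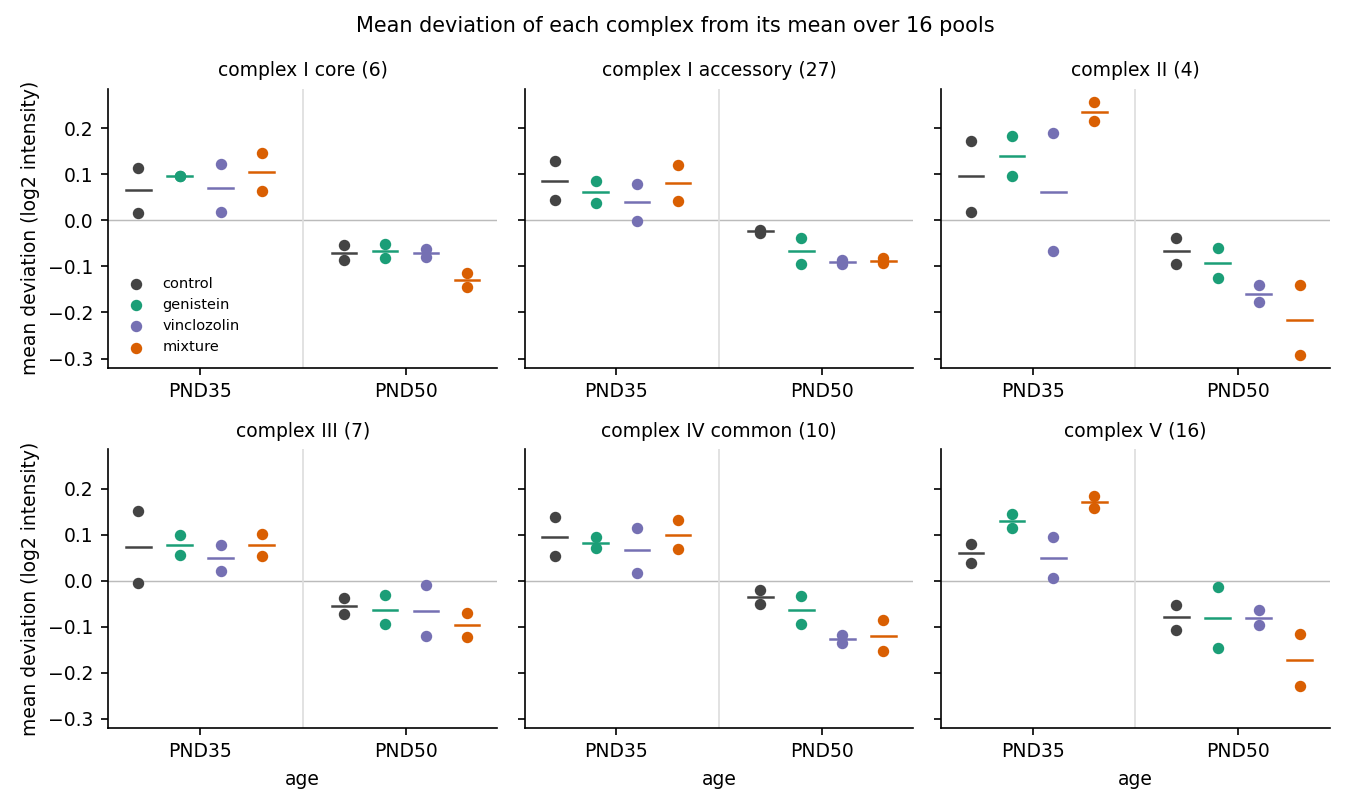
Mean deviation of the members of each complex from their mean over 16 pools, in log2 intensity (vertical axis), for each pool by age (horizontal axis) and treatment (colour), with bars at the mean of 2 pools. In complex V the PND35 pools lie between 0.005 and 0.184 and the PND50 pools between -0.229 and -0.014, and in complex II the vinclozolin PND35 pool at -0.066 lies within the range of the PND50 pools.

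The share of members that fell ran from 4 of 7 in complex III to 4 of 4 in complex II, and no test was made between complexes. For 15 members every PND50 pool lay below every PND35 pool, and for none did every PND50 pool lie above, where 3.98% and 1.77% of all genes did so. These 15 included 6 of complex I, 2 each of complexes II, III and IV, and 3 of complex V. Brighter members had the smaller median, as the 40 members at or above the median level of 9.73 had a median difference of -0.142 and the 39 below it one of -0.235. Among the 10 members with several probe sets, 9 had the same direction of age difference in each probe set. Whether probe sets also bound near-identical transcripts, such as those of pseudogenes, was not tested.

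Skeletal muscle markers moved with age in the same direction as the members, with 17 of 21 lower at PND50, none higher, and a median difference of -1.17. With the muscle score of each pool added to the fit, 2 members were called in place of 52, Ndufs5 with a difference of -0.277 (adjusted p = 0.0369) and the complex V subunit Atp5me with -0.276 (adjusted p = 0.0414). In that fit the median member difference was -0.147 with 68 members negative, 53 of 79 differences were nearer to 0, and the median standard error rose from 0.045 to 0.076. The loss of calls was not particular to the members. With the score 279 of all 11796 genes were called, where without it 25.2% were called lower and 19.4% higher. Other markers that differed between the ages were erythroid genes (6 of 7 lower, median -1.11), proliferation genes (19 of 21 lower, median -0.557), white adipocyte genes (7 of 17 lower, median -0.184), lymphocyte genes (8 of 9 higher, median 0.302) and luminal epithelial genes (15 of 20 higher, median 0.262). Brown adipocyte genes counted 2 of 6 lower (median -0.085), beside the 25.2% of all genes called lower. The part of these cell types in the members' change was not tested.

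The tissue isoforms of complex IV were compared with their common partners. Cox6a2, the heart and skeletal muscle form of subunit 6a, was at 8.58 and 8.72 (control), 8.76 and 9.42 (genistein), 8.32 and 8.44 (vinclozolin), and 8.77 and 10.23 (mixture) at PND35. At PND50 it was at 7.88 and 7.82 (control), 7.68 and 7.93 (genistein), 9.74 and 8.46 (vinclozolin), and 7.93 and 7.27 (mixture). The control, genistein and mixture pools were all lower at PND50. Of the vinclozolin PND50 pools, replicate 1 at 9.74 was higher, and replicate 2 at 8.46 was about level with the PND35 pool at 8.44. Averaged over treatments Cox6a2 fell by 0.815 (SE 0.228, adjusted p = 0.0135), to 0.568 of its PND35 level, and with the muscle score in the fit the difference was 0.257 (adjusted p = 0.161).

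The common form Cox6a1 had a highest value of 11.35 at PND35 and of 11.11 at PND50, with overlapping ranges, and fell by 0.239 (SE 0.056, adjusted p = 0.00561). Within each pool, the difference Cox6a2 minus Cox6a1 changed by -0.576 between the ages on average (exact permutation test within treatments, two-sided, p = 0.1157, 0.287 adjusted over 4 pairs, where the smallest p the arrangements allow is 0.0015). The change was -0.49 in control, -0.98 in genistein, 0.8 in vinclozolin and -1.64 in the mixture. The shift against the partner was therefore negative in every treatment but vinclozolin, where it rests mainly on replicate 1 of PND50, with Cox6a2 at 9.74.

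Cox8b, the muscle form of subunit 8, was dim, at 5.79 to 6.11 in 7 of the PND35 pools and at 7.42 in mixture replicate 2, the pool with the highest muscle score. At PND50 it spanned 5.54 to 6.26, with vinclozolin replicate 1 highest. Its difference of -0.343 (SE 0.157, adjusted p = 0.0954) did not pass the test. Against Cox8a it changed by -0.33 (exact permutation test, two-sided, p = 0.1435, adjusted 0.287), again negative in control, genistein and mixture and positive, at 0.23, in vinclozolin. Slc25a4 and Slc25a5, the muscle and widespread forms of the ADP/ATP carrier and no members, were compared as a related pair and changed by -0.098 against each other (exact permutation test, two-sided, p = 0.3642, adjusted 0.3642).

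The remaining tissue isoforms behaved variously. Cox6b2, known from testis, spanned 7.13 to 7.78 at PND35 and 6.82 to 7.25 at PND50 and fell by 0.366 (SE 0.068, adjusted p = 0.00157), with both vinclozolin PND35 pools, 7.23 and 7.13, within the PND50 range, as was 1 genistein pool at 7.23. Cox4i2, an isoform of lung, had medians of 6.78 and 6.68, a difference of -0.084 (SE 0.045, adjusted p = 0.141). Cox4i1, its common partner, fell by 0.175 (SE 0.06, adjusted p = 0.0336), and the difference within the pair changed by 0.09 (exact permutation test, two-sided, p = 0.3071, adjusted 0.3642). Cox8c, a testis form, had medians of 5.97 and 6.10, a difference of 0.132 (SE 0.054, adjusted p = 0.0653).

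**Figure D3:**
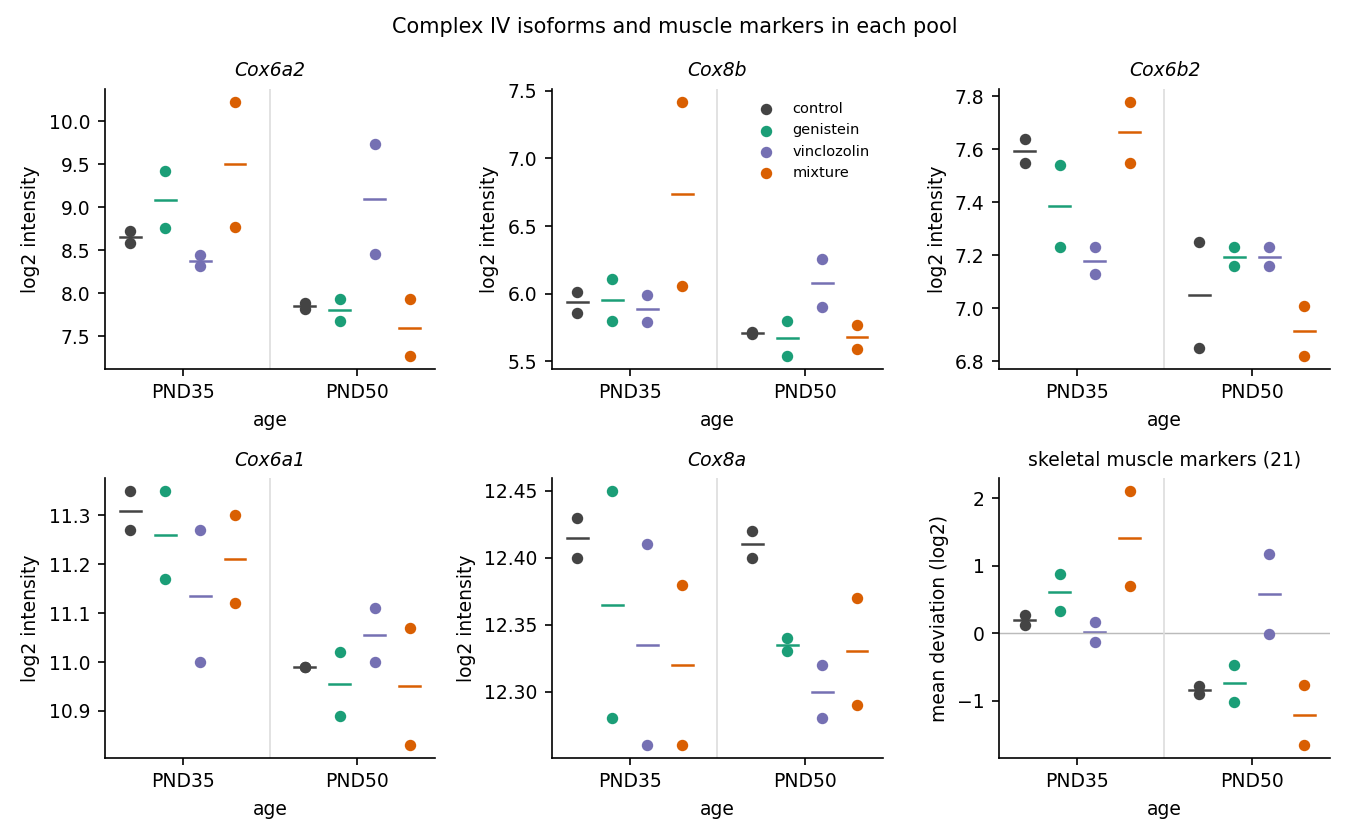
Log2 intensity (vertical axes) of complex IV tissue isoforms and 2 common partners, and the mean deviation of 21 skeletal muscle markers, in each pool by age (horizontal axes) and treatment (colour), with bars at the mean of 2 pools. Cox6a2 and Cox8b are highest in mixture replicate 2 at PND35, at 10.23 and 7.42, the pool with the highest muscle value of 2.1.

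Within single treatments, 2 pools per age were compared. The direction of most members was the same in each treatment: 53 of 79 members, 67.1%, were lower at PND50 in all 4 treatments, against 25.5% of all genes. Higher in all 4 treatments were 4 of 79 members, against 22.1% of all genes. These were Ndufs4, Ndufs7, Ndufb6 and Ndufb11, named here after their values were seen. All belong to complex I, the complex with the most members. Some of the rises were small, as Ndufb11 in controls went from 11.04 and 11.03 at PND35 to 11.04 and 11.06 at PND50. The calls differed widely in number. In controls 1 member fell, Ndufs5 by 0.318 (SE 0.06, adjusted p = 0.0367), where 0.237% of all genes were called lower. The member median was -0.127.

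After genistein 2 members fell, Cox5b by 0.269 (SE 0.063, adjusted p = 0.0469) and the rotor ring gene Atp5mc2 by 0.334 (SE 0.079, adjusted p = 0.0469), where 1.96% of all genes were called lower. The median was -0.152. After vinclozolin 1 member fell, Ndufb3 by 0.349 (SE 0.08, adjusted p = 0.0433), where 1.64% of all genes were called lower, and the median was -0.121. Under single alternatives or with single pools left out, the counts in controls, genistein and vinclozolin moved between 0 and 5.

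After the mixture 43 members fell and 4 rose, where 18.3% of all genes were called lower and 14.4% higher, and the median was -0.268. All 4 subunits of complex II fell (median -0.482), as did 11 of 16 members of complex V (median -0.385), 5 of 6 core subunits of complex I (median -0.282), 12 of 27 accessory subunits, 3 of 7 subunits of complex III and 4 of 10 common subunits of complex IV. Atp5po went from 8.81 and 8.90 at PND35 to 8.28 and 8.06 at PND50 and fell by 0.683 (SE 0.118, adjusted p = 0.00224). Sdha went from 9.99 and 10.11 to 9.58 and 9.37, and its difference was -0.578. The members that rose were Ndufs7 by 0.373 (SE 0.082, adjusted p = 0.00667), Uqcr11 by 0.277, Ndufs4 by 0.263 and Ndufb11 by 0.248.

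The mixture pools also differed most in muscle markers, of which 20 of 21 were lower at PND50 with a median of -2.79. Without mixture replicate 2 of PND35, the pool with the highest muscle score, 18 members were called, and without mixture replicate 2 of PND50, the pool with the lowest, 20 were called. With the muscle score in the fit none was called by limma, with a member median of -0.16, and 1 gene was called in all. The tests of whether the age difference itself depended on treatment called no member. For genistein, vinclozolin and mixture against control, 0%, 0.381% and 0% of all genes were called, and the smallest adjusted p of a member was 0.578, 0.59 and 0.321. In these tests 3, 3 and 13 members (3.8%, 3.8% and 16.5%) had an unadjusted p under 0.05, as did 7.68%, 6.71% and 12.2% of all genes.

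The vinclozolin groups were the ones in which muscle markers did not fall with age. Their muscle scores were -0.127 and 0.157 at PND35, and 1.17 and -0.009 at PND50. Only replicate 1 of PND50 thus lay above both PND35 pools. In the group difference all 21 markers were positive with a median of 0.558, none of them past the test. Cox6a2 was positive as well, at 0.723 (SE 0.455, adjusted p = 0.408), and its age difference lay 1.52 above that of controls (SE 0.644, adjusted p = 0.715). In the same pools the 74 members other than tissue isoforms had a median of -0.134. It was -0.119 in controls and -0.15 after genistein, where the muscle medians were -1.13 and -1.4. The vinclozolin PND35 pools also stood apart in skin and hair genes, with mean deviations of 3.07 and 2.58, so that tissue differs between these ages too. The part of either tissue in the members' difference was not tested. Complex II and the common subunits of complex IV had medians of -0.247 and -0.235 in the vinclozolin groups. Other complexes held members that went the other way there, among them Ndufs4, Ndufs7, Ndufb6 and Ndufb11 of complex I.

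**Figure D4:**
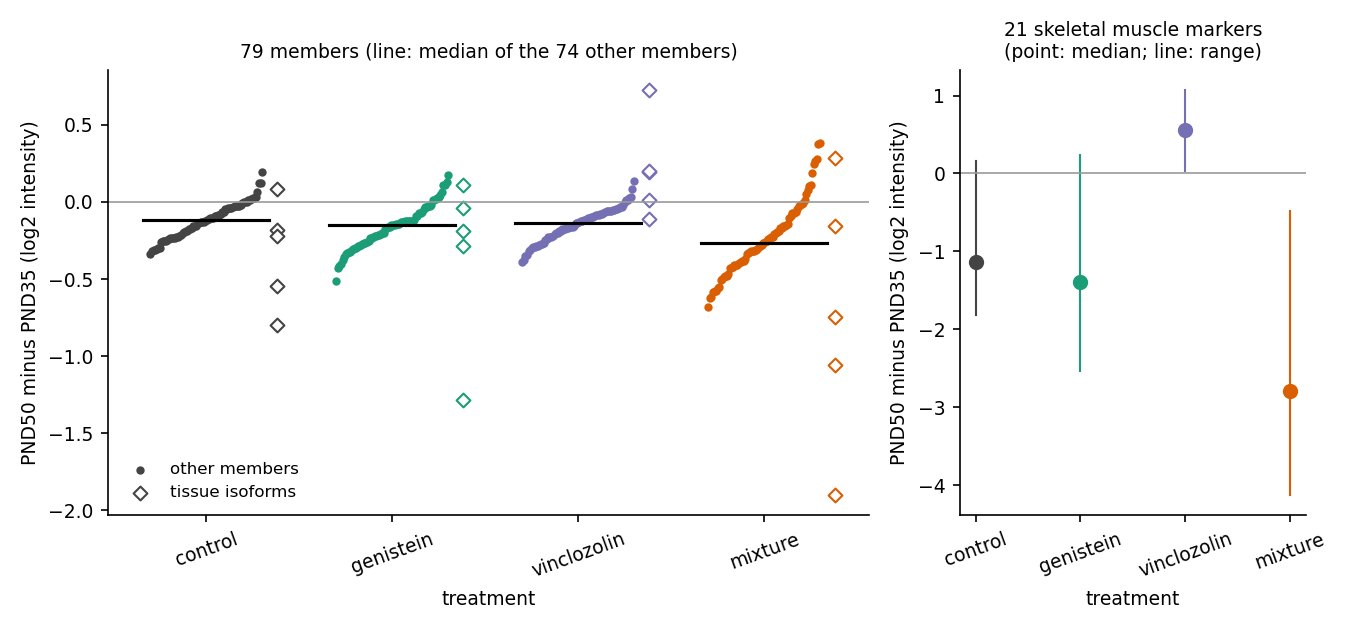
Left, difference between PND50 and PND35 in log2 intensity (vertical axis) of each member within each treatment (horizontal axis), 2 pools per age, with tissue isoforms as diamonds and bars at the median of the other 74 members. Right, the same difference for 21 skeletal muscle markers, with the median as a point and the range as a line, where the vinclozolin median is 0.558 and the mixture median -2.79 while the member medians at left are -0.134 and -0.265.

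The effect of exposure was compared with controls at each age, and the 3 exposures of an age share the same 2 control pools. No member passed the test in any of the 6 comparisons (limma). At PND35 the percentage of all genes called was 0% for genistein, 1.34% for vinclozolin and 0% for the mixture, and 3, 1 and 13 members (3.8%, 1.27% and 16.5%) had an unadjusted p under 0.05, as did 11.1%, 14.5% and 15.3% of all genes. At PND50 the percentages were 0%, 0% and 0.00848%, and 1, 4 and 2 members (1.27%, 5.06% and 2.53%) had an unadjusted p under 0.05, as did 2.6%, 6.04% and 7.41% of all genes. Member medians at PND35 were 0.024, -0.031 and 0.067, and at PND50 -0.021, -0.035 and -0.063. The median standard error of a member difference was 0.09 in each, and the median age difference of -0.172 is under 2 such standard errors.

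Among the members with the smallest p at PND35, Atp5mc2 was at 11.26 and 11.26 in control and at 11.59 and 11.45 after genistein, a difference of 0.261 (SE 0.079, adjusted p = 0.294). Both genistein pools lay above both control pools. Atp5mc2 was chosen for its small p, and the share of all genes so separated was not counted. Ndufaf3 and Ndufs4 differed by 0.203 and -0.185 in the same comparison. After vinclozolin Cox6b2 was at 7.23 and 7.13 against 7.55 and 7.64, a difference of -0.414 (SE 0.136, adjusted p = 0.187). Ndufb8, a membrane-arm subunit, differed by -0.183 and Atp5if1 by 0.123 there. Both vinclozolin pools at PND35 were those that stood apart in skin and hair genes, and the part of that tissue was not tested.

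After the mixture the accessory subunit Ndufb7 was at 8.93 and 9.15 against 8.71 and 8.76, a difference of 0.306 (SE 0.088, adjusted p = 0.188). Uqcr11 was at 12.27 and 12.30 against 12.56 and 12.59, a difference of -0.291 (SE 0.091, adjusted p = 0.203), and Ndufs4 differed by -0.242. None of these differences passed. Cox6a2 differed by 0.851 (SE 0.455, adjusted p = 0.4) and Cox8b by 0.804 (SE 0.315, adjusted p = 0.27), while the 21 muscle markers had a median of 1.16. Without mixture replicate 1 of PND35, Cox8b was called at 1.48 (adjusted p = 0.00728), a value that then rests on the pool at 7.42 alone.

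At PND50 Cox4i2 after genistein was at 6.82 and 6.93 against 6.67 and 6.55, a difference of 0.264 (SE 0.089, adjusted p = 1), and Uqcr11 and Ndufa10 differed by -0.178 and -0.37. After vinclozolin the stalk subunit Atp5pd was at 10.69 and 11.02 against 11.14 and 11.21, a difference of -0.318 (SE 0.108, adjusted p = 0.798). Cox6a2 was at 9.74 and 8.46 against 7.88 and 7.82, a difference of 1.25 (SE 0.455, adjusted p = 0.8), beside a muscle median of 1.6. Sdhb was at 9.19 and 9.20 against 9.36 and 9.37, a difference of -0.168 (SE 0.071, adjusted p = 0.8), and after the mixture at 9.21 and 9.18, a difference of -0.169 (SE 0.071, adjusted p = 0.657). Atp5po and the small complex III subunit Uqcrq differed by -0.262 and -0.205 after the mixture. Neither of these differences passed the test.

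Other genes of mitochondrial energy metabolism were counted in the age comparison from lists of their own. Their counts stand beside the 25.2% of all genes called lower and the 19.4% called higher. Of 29 assembly factors of the complexes, 16 fell and none rose, with a median of -0.133, among them the complex I assembly factor Acad9 by 0.256 (SE 0.031, adjusted p = 0.000185) and Lrpprc, which stabilises mitochondrial messenger RNA, by 0.231 (SE 0.035, adjusted p = 0.000571). Of 15 citric acid cycle genes 10 fell and none rose (median -0.225), with the smallest p for Idh2, the mitochondrial isocitrate dehydrogenase, at -0.275 and Suclg2, a subunit of succinyl-CoA ligase, at -0.263. Of 16 genes of fatty acid oxidation 13 fell and none rose (median -0.261), with the smallest p for Eci1 at -0.263 and Hadh at -0.277, both enzymes of the beta-oxidation spiral.

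Of 10 carriers and pores of the mitochondrial membranes 7 fell and none rose (median -0.261), with the ADP/ATP carrier Slc25a5 at -0.335 (SE 0.047, adjusted p = 0.000384) and the outer membrane channel Vdac1 at -0.26 (SE 0.041, adjusted p = 0.000644). Of 16 genes for electron carriers and their synthesis 3 fell and 1 rose (median -0.077). Both counts lie below the 25.2% and 19.4% of all genes called lower and higher. The ubiquinone synthesis genes Coq3 and Coq5 fell by 0.197 and 0.364. Glycolysis genes counted 10 of 18 lower and 1 higher (median -0.166), with lactate dehydrogenase gene Ldha at -0.373 and aldolase gene Aldoc at 0.537.

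Of 21 regulators of mitochondrial genes 6 fell and 3 rose (median -0.071), counts near the 25.2% and 19.4% of all genes called lower and higher. Gabpa, the DNA-binding subunit of GABP, which activates many respiratory chain genes, fell by 0.235 (SE 0.048, adjusted p = 0.00265). Mterf3, a repressor of mitochondrial transcription, fell by 0.144 (SE 0.034, adjusted p = 0.00637). Tfam, the packaging factor of mitochondrial DNA, fell by 0.167 (SE 0.047, adjusted p = 0.0144) and was named after its value was seen. The 3 that rose were Esrrb, Esrrg and Polg2, and their values are given under other observations. The regulators Nrf1 and the coactivator Ppargc1a differed by -0.09 (adjusted p = 0.0529) and -0.073 (adjusted p = 0.486).

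Since most members moved in 1 direction, their promoters were searched for the cores of 4 factors known to act on respiratory chain genes. RefSeq promoters (assembly GRCr8), each from 250 bases before to 50 after the start, were held for 70 of the 80 members. The cores were GCATGCGC for NRF1, CCGGAAG for GABP, TCAAGGTCA for the estrogen-related receptors (ERR) and AAGATGGCG for YY1, on either strand. The NRF1 core can overlap its own reverse, and in no member did cores of different factors overlap.

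GABP cores were found in 21 promoters, 30% of the members, against 8.75% of all 33469 promoters of this length and 15.3% of those of genes tested here. NRF1 cores were found in 10, 14.3%, against 2.47% and 4.42%. YY1 cores were found in 8, 11.4%, against 1.73% and 3.09%, and ERR cores in 2, Sdhd and the rotor ring gene Atp5mc3, 2.86% against 0.433% and 0.225%. Of the 48 members that fell and have a promoter here, 17 hold the GABP core (35.4%), 8 the NRF1 core (16.7%), 5 the YY1 core (10.4%) and 2 the ERR core (4.17%). These shares are near the 30%, 14.3%, 11.4% and 2.86% of all members with a promoter. A match describes the letters only.

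The 200 bases before the start are shown for 1 member of each complex that fell and holds a core there, chosen after the search, and for the muscle isoform Cox6a2, which holds none. Capitals mark the cores on either strand. Ndufa6 (chr7:115750318-115750517, minus strand), a complex I accessory subunit that fell by 0.276, has a GABP and an NRF1 core. Sdhb (chr5:158547734-158547933, plus strand) has an NRF1 and a GABP core. Uqcrc2 (chr1:184599040-184599239, plus strand) has 2 GABP cores, and Cox5b (chr9:46417637-46417836, plus strand) has 1. In Atp5po (chr11:44657484-44657683, minus strand) the NRF1 core overlaps its reverse. Cox6a2 lies at chr1:192219717-192219916 on the minus strand.
Ndufa6: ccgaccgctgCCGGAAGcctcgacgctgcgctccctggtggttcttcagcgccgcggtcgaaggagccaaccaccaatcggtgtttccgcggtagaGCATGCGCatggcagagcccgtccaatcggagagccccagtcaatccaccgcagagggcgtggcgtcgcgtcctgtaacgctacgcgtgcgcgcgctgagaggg
Sdhb: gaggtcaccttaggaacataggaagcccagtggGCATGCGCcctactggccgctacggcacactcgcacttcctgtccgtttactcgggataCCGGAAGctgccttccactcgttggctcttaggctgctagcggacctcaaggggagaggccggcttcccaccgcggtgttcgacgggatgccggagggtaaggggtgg
Uqcrc2: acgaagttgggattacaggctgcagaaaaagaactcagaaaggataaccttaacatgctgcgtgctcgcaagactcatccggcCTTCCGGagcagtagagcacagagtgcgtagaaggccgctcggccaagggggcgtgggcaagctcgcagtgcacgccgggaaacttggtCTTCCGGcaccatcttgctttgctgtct
Cox5b: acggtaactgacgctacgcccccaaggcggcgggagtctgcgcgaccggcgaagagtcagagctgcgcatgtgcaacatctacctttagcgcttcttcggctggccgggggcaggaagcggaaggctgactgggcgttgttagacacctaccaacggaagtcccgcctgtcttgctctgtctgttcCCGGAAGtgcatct
Atp5po: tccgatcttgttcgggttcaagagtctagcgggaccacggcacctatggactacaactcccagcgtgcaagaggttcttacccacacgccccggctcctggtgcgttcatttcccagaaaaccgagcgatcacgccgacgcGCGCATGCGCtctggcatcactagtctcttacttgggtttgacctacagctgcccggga
Cox6a2: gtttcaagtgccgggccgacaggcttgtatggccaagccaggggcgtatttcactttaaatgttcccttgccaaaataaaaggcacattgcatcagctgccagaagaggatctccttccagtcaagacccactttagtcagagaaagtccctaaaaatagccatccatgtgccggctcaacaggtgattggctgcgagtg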

How the data were processed

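Each array of rat mammary gland carried pooled RNA of 5 animals. The table deposited by the authors gives 1 value for each of 27342 probe sets and 16 arrays, between 2.2 and 13.9. Their range led to a reading as log2 intensities. The log base, background correction, normalization and summarization were not given in the sources used here. Array medians lay between 7.05 and 7.145, and nothing was normalized further. Every value column of the table was used, leaving 0 columns of other samples.

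The platform annotation lists 15420 probe sets, 15097 with 1 symbol and 323 with several, and 11922 are unnamed here. Gene identifiers of 15067 matched RefSeq (GRCr8). Per symbol the probe set with the highest mean was kept, and genes were left out if their mean lay below 5.661, the 25th percentile over all probe sets, which left 11796 genes. No detection calls were used.

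Groups and replicate numbers came from the sample titles. limma 3.58.1 in R 4.3.3 fitted 1 mean per group over all 16 arrays with 8 residual degrees of freedom, with 14 contrasts, two-sided, Benjamini-Hochberg adjusted over all genes tested, at a threshold of 0.05. The fit was tested on simulated data. Isoform pairs were compared by an exact permutation of ages within treatments. Scores per pool are mean deviations of a list's log2 values from their means over 16 pools. Alternatives were other filters and normalizations, averaging the probe sets of a gene, a replicate block, array weights, a robust fit, muscle and brown adipocyte scores as covariates, fits on fewer arrays, and leaving out each pool in turn. Replicate numbers do not pair the groups. Deviations of same-numbered pools correlated between -0.366 and 0.301, with 8 of 28 group pairs above 0.1.

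Members and lists were chosen with earlier results of these data known. Named were, per class, the 3 members with the smallest p and the 1 with the largest in the age average (all in classes of 5 or fewer), tissue isoforms and their partners, the 3 smallest p per exposure comparison, and the 2 smallest p per pathway list. Others were chosen after their values were seen. Figures used matplotlib 3.10.9 in Python 3.11.15.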

Additional observations from a re-analysis of the deposited data

How the results depend on the processing

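The count of 52 members called in the age average stayed between 45 and 55 under the alternatives other than the muscle score, which gave 2, and lay between 45 and 54 with single pools left out. In the mixture the 47 calls became 0 with the muscle score and lay between 18 and 48 with single pools left out. Counts of 1 or 2 within the other treatments moved as follows. In controls the count was 0 without a filter, with the mean of all probe sets and with the muscle score, 2 with array weights, and 0 to 1 with single pools left out. After genistein it was 5 with a filter at the 50th percentile, 1 with the mean of all probe sets, 0 without a filter, with quantile normalization, median centring, array weights, the muscle score and the replicate block, and 0 to 2 with single pools left out. After vinclozolin it was 2 with the muscle score, 0 without a filter, with quantile normalization, median centring, array weights, the brown adipocyte score and the replicate block, and 0 to 2 with single pools left out. The count for the mixture at PND35 was 0 to 1 with single pools left out. The other exposure and interaction counts stayed at 0 under every alternative run. The 4 isoform pair differences kept their direction and did not pass the threshold under the alternatives run. The replicate block gave 54 calls in the age average. It is a term for numbers that do not pair the pools. Over 55 named members and 27 alternatives, 1355 of 1478 age differences kept direction and side of the threshold, 77 lost and 17 gained the call, and 29 turned sign. With the muscle score Cox4i1 was at 0.002, Cox6a2 at 0.257, Cox8b at 0.305, Ndufa10 at 0.235, Atp5pd at -0.163, Ndufb6 at -0.054 and Ndufs4 at -0.004. With the brown adipocyte score Cox8a was at 0.012 and Ndufv3 at 0.01. With quantile normalization Ndufaf3 was at 0.013, Ndufv3 at 0.016 and Uqcr11 at -0.02, and with the mean of all probe sets Ndufv3 was at 0.022. Without both vinclozolin PND35 pools Ndufaf3 was at 0.011, Ndufa10 at 0.004 and Ndufv3 at 0.002. With single pools left out Cox8a lay between -0.034 and 0.009, Ndufaf3 between -0.034 and 0.026 and Ndufv3 between -0.016 and 0.01. The cause was not tested. With the muscle score 53 of 79 member differences were nearer to 0 and the median standard error rose from 0.045 to 0.076. In that fit 279 of all 11796 genes were called in the age average. With 2 pools per group, the number of arrays limits the precision.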

Other observations

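Some members outside the naming rule are given here after their values were seen. Ndufa1, a small membrane subunit of complex I, had the largest age difference among the complex I members in the fit without marker scores, with medians of 7.30 at PND35 and 6.89 at PND50 and a fall of 0.423 (SE 0.09, limma adjusted p = 0.00341). With the muscle score in the fit it was at -0.118 (adjusted p = 0.593), nearer to 0 than Ndufs5 at -0.277. The head of the ATP synthase fell in its alpha subunit Atp5f1a by 0.356 (SE 0.06, adjusted p = 0.000904) and in its catalytic beta subunit Atp5f1b by 0.237 (SE 0.057, adjusted p = 0.00631), and with the muscle score these were at -0.168 (adjusted p = 0.261) and -0.155 (adjusted p = 0.384). The gamma subunit of the rotor, Atp5f1c, differed by -0.06 (SE 0.038, adjusted p = 0.214). Ndufb6 spanned 11.39 to 11.88 at PND35 and 11.55 to 11.90 at PND50, a difference of 0.163 (SE 0.068, adjusted p = 0.0712), or -0.054 with the muscle score.

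Among the regulators, those that rose between the ages were the estrogen-related receptor genes Esrrb by 0.16 (SE 0.042, adjusted p = 0.01) and Esrrg by 0.206 (SE 0.071, adjusted p = 0.0342), and Polg2, the accessory subunit of the mitochondrial DNA polymerase, by 0.151 (SE 0.04, adjusted p = 0.0109). Yy1, a zinc finger factor, fell by 0.158 (SE 0.039, adjusted p = 0.00728). Esrra differed by 0.038 (adjusted p = 0.472). Cytochrome c, encoded by Cycs, fell by 0.174 (SE 0.039, adjusted p = 0.00472), and Sqor, which passes electrons from sulfide to ubiquinone, rose by 0.395 (SE 0.078, adjusted p = 0.00221).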
